A study of Mus musculus with 4 samples.

Results

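The genes described here are 41 named genes of glucose uptake, glycolysis, lactate export and the pentose phosphate pathway, of 50600 genes counted in the series. They were taken by symbol from a fixed list, and all 41 were found in the files. The RNA-seq libraries, 4 in a single group, came from primary T-cell samples of strain C57BL/6NJ and carry replicate numbers 1 to 4. Headers of the count files add Th0, activated and 16 h, where Th0 commonly means CD4 T cells stimulated with no cytokines that steer them to a subset. The labels give age and developmental stage as unknown and sex as not collected, and place the 4 biosamples under a shared donor identifier. The libraries differed in sex-linked RNA: Xist, the RNA of the inactive X chromosome, lay at 141, 116, 0.269 and 0.303 TPM, and 4 Y-linked genes summed to 0.0951, 0.328, 104.9 and 104.9 TPM. Replicates 1 and 2 thus carried Xist with hardly any Y-linked RNA and replicates 3 and 4 the reverse, which the shared identifier does not show, and the part of this in differences between replicates was not tested. How many animals were used is not stated, so p-values measure only the spread between these samples. There was no unstimulated group, so the values are levels at a single time and no induction can be read from them. Libraries held 53619400, 48931322, 63313389 and 46192242 counted read pairs. All 7 T cell marker genes were present in every library and summed to at least 4739 TPM, a unit explained below, while Cd8a and Cd8b1 summed to at most 62.2 TPM. In such bulk samples fewer cells expressing a gene and less RNA per cell cannot be told apart. Only RNA was measured, so shares of transcripts do not give shares of protein or activity.

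Glycolysis splits glucose into pyruvate through a preparatory phase that spends ATP and a pay-off phase that yields ATP and NADH. Lactate dehydrogenase turns pyruvate into lactate and restores NAD+, and monocarboxylate transporters carry the lactate out. The pentose phosphate pathway branches off after hexokinase, makes NADPH in its oxidative arm and exchanges sugar phosphates in its non-oxidative arm. Many of these steps have several genes for the same reaction, called isoenzymes, whose use differs between tissues, and activated T cells are known for a high rate of lactate production in the presence of oxygen.

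Most of the pathway was expressed, usually through 1 dominant gene per step. At 1 TPM or more in every library lay 35 of the 41 genes, beside 45.2% of the 21751 nuclear protein-coding genes. TPM, a measure of transcript abundance, is the count divided by the exonic length deposited for the gene and scaled to a fixed total. Comparison of levels between genes therefore depends on that length. For 11 of the 41 genes it was 2 or more times the length of 1 reference transcript. Per length of that transcript, 8 of the 38 genes with counts rose more than 1.5 times and 0 fell as far. The 41 genes had a median level of 56.9 TPM, against 0.338 TPM over all nuclear protein-coding genes and 32.7 TPM over the 9840 of these that reached 1 TPM in every library. A mean of 100 TPM or more was reached by 19 of the 41 (46.3%), against 9.07% of nuclear protein-coding genes. Together the 41 held 1.45%, 1.49%, 1.54% and 1.44% of the read pairs in replicates 1 to 4. Ldha, Pkm, Gapdh and Aldoa ranked 20, 46, 58 and 62 among nuclear protein-coding genes. The 6 genes below the floor were Slc2a6, Hk3, Hkdc1, Aldoc, Pgam2 and Pklr.

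**Figure D1:**
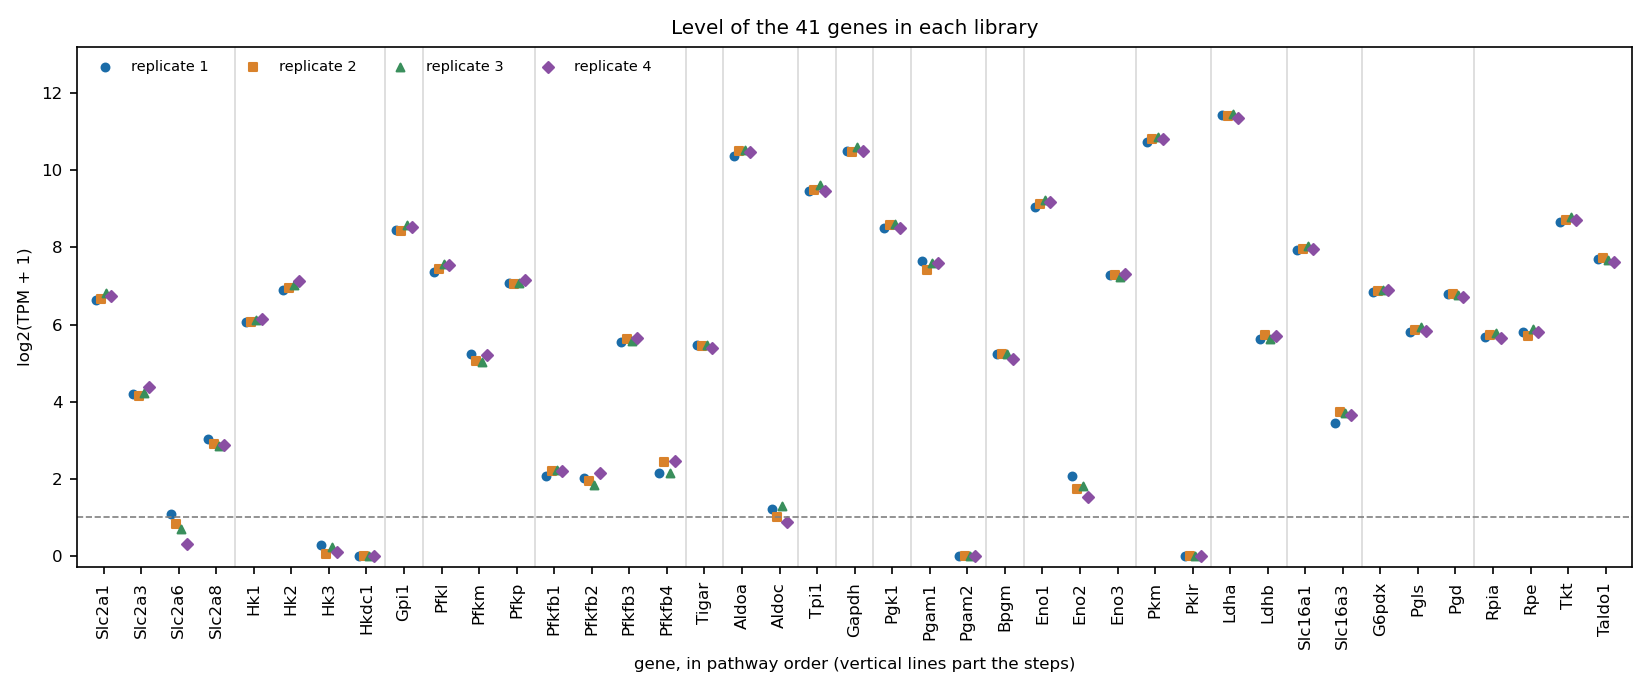
Level of each of the 41 genes in each library, as log2(TPM + 1), in pathway order with vertical lines between the steps; the dashed line marks 1 TPM. The 4 libraries lie close together for nearly every gene, and each step with several genes has 1 or 2 genes well above the rest.

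Promoters are shown for the genes that form lactate and carry it across the membrane, where an abundant gene stood beside a scarcer one for the same task. Capitals mark the letters ACGTG on either strand, 1 form of the core of the site bound by hypoxia-inducible factor in textbook descriptions. Other forms of that core, such as GCGTG, were not marked or counted. Where both strands overlap the capitals read CACGTG, the E-box bound by MYC. Sequences are from RefSeq on GRCm38.p6, the build named mm10 in the labels, run 5′ to 3′ in the direction of the gene, and span 250 bases before to 50 bases after a start site.
Ldha (chr7:46845554-46845853, plus strand): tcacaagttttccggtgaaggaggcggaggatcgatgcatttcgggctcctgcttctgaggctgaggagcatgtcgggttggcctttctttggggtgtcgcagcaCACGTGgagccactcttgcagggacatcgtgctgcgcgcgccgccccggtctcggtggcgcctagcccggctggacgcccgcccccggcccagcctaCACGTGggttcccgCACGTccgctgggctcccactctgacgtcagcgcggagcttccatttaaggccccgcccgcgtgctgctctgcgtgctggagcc
Ldha, second start site (chr7:46846832-46847131, plus strand): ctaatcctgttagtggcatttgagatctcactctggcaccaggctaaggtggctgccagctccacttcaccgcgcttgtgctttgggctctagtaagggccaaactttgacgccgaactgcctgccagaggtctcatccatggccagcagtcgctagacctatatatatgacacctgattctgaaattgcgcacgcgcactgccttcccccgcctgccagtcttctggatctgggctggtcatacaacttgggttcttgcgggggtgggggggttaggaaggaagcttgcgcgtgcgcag
Ldhb (chr6:142507908-142508207, minus strand): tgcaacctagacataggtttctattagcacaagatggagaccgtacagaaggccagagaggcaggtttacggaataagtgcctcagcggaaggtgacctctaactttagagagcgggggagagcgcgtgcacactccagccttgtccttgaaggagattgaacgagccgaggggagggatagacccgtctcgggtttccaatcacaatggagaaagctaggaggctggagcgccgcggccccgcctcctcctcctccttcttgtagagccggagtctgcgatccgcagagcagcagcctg
Slc16a1 (chr3:104638414-104638713, plus strand): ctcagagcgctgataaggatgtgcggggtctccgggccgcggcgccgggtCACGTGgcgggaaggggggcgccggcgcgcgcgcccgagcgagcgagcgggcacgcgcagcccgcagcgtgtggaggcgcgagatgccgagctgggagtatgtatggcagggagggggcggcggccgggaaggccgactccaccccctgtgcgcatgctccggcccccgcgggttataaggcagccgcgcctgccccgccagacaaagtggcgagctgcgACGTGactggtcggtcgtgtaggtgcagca
Slc16a3 (chr11:120948817-120949116, plus strand): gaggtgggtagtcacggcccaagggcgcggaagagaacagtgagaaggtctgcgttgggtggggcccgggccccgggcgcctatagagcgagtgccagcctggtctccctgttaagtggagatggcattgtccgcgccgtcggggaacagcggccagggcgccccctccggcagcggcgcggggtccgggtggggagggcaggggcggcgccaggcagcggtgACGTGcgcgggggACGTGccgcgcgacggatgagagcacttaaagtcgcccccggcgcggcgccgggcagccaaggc
The first Ldha window held 2 copies of CACGTG and a further CACGT, the Slc16a1 window 1 copy of CACGTG and a further ACGTG, and the Slc16a3 window 2 copies of ACGTG and none of CACGTG. The second Ldha window and the Ldhb window held neither ACGTG nor CACGTG, though the letters GCGTG, which were not counted, occur in both. Of the 41 genes 40 had a promoter in the table, with 59 windows in all. ACGTG on either strand was present in 21 of the 59 windows (35.6%), beside 19.6% of all 32851 promoter windows of the same length, and CACGTG, which always contains ACGTG, in 5 (8.47%) beside 7.15%. These windows were also richer in CpG, with a median of 17 CpG per window against 7 over all promoters, and the part of CpG content in the motif share was not tested. Beyond Ldha and Slc16a1, CACGTG lay in a window of Pfkfb3, of Pfkfb2 (2.98 TPM) and of Pfkm (34.1 TPM). Pfkfb2 and Pfkm had the lowest mean TPM of their steps. No window of the abundant Pkm, Gapdh or Aldoa held CACGTG. Any link between motif and level was not tested. The motifs are matches of letters only, and no binding was measured here.

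Glucose entry ran mainly through Slc2a1 by transcript level. Slc2a1, the basal glucose transporter of many cells (ENSMUSG00000028645.11, chromosome 4, 119108711 to 119137983), had 98.7, 99.5, 111 and 107 TPM, given here and below in the order of replicates 1 to 4. Slc2a3, a high-affinity glucose transporter, lay at 17.2, 16.6, 17.7 and 19.7 TPM, below Slc2a1 in every library with no overlap. Slc2a1 held 80.5 ± 1.04% of the summed TPM of the 4 transporter genes (SD, n = 4) and Slc2a3 13.8 ± 0.759%. Per reference transcript Slc2a3 held 20.96 ± 1.06% and by read pairs 24.96 ± 1.19%, and the ratio of Slc2a1 to Slc2a3 went from 5.85 ± 0.369 to 3.44 ± 0.217 and 2.83 ± 0.178. Slc2a8, a transporter of internal membranes, lay at 6.57 ± 0.461 TPM. Slc2a6, a lysosomal transporter known from macrophages, lay at 1.12, 0.779, 0.628 and 0.232 TPM and was lowest in replicate 4. Over the same replicates the summed level of 5 B cell markers, none of which reached 1 TPM in every library, was 9.36, 6.37, 6.61 and 2.45 TPM, and its part in the Slc2a6 values was not tested. Of 7 other glucose transporters 1 reached the floor, Slc2a9, known as a urate carrier, at 3.22 ± 0.761 TPM, and 4 had no count.

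Transcripts of hexokinase, which traps glucose as its phosphate, came from Hk2 and Hk1 and from hardly any other gene. Hk2, the inducible form (ENSMUSG00000000628.10, chromosome 6, 82725025 to 82774454), lay at 117, 123, 129 and 140.03 TPM. Hk1, the widely expressed form (ENSMUSG00000037012.18, chromosome 10, 62268855 to 62379908), lay at 65.8, 66.4, 68.0 and 69.9 TPM. Hk2 exceeded Hk1 by 1.88 ± 0.0934 times in TPM, in 4 of 4 libraries. By read pairs, not divided by length, the ratio was 1.32 ± 0.0653, with Hk2 ahead in 4 of 4 libraries. How far Hk2 led depended on the length used. The deposited exonic length of Hk1, 8532 bases, is 1.99 times that of its reference transcript, whereas for Hk2 the same ratio is 1.08. With TPM computed per length of 1 reference transcript the ratio of Hk2 to Hk1 became 1.02 ± 0.0507, with a range from 0.969 to 1.09, and the libraries no longer shared a direction. Hk3, the myeloid form, had 13, 2, 12 and 3 read pairs, and 7 myeloid markers, of which S100a8, S100a9 and Mpo had no count, summed to at most 0.330 TPM in any library. Hkdc1 had no count, which allows up to 0.0310 to 0.0435 TPM in a library (3 counts, counting error only). Adpgk, which phosphorylates glucose with ADP, lay at 28.6 ± 1.26 TPM on a deposited length of 9609 bases. Its reference transcript has 2484 bases, per which it lay at 77.0 ± 3.30 TPM. On that scale Hk1 lay at 93.8 ± 2.71 and Hk2 at 96.1 ± 7.56 TPM.

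Gpi1, which converts glucose phosphate to fructose phosphate, lay at 349, 346, 383 and 369 TPM. Phosphofructokinase, the committed step of glycolysis, used all 3 of its genes. Pfkl, the liver form, lay at 163, 174, 188 and 187 TPM. Pfkp, the platelet form, lay at 133, 131, 134 and 141 TPM, and Pfkm, the muscle form, at 36.4, 32.1, 31.7 and 36.0 TPM. In shares of TPM these were 51.3 ± 1.71% for Pfkl, 38.8 ± 0.893% for Pfkp and 9.84 ± 0.838% for Pfkm. Pfkl stood above Pfkp in 4 of 4 libraries on this scale. By read pairs, which are not divided by length, Pfkp led in 3 of 4 libraries with 49.5 ± 1.18% against 46.5 ± 1.51% for Pfkl, and per reference transcript the shares were 46.3 ± 1.11% for Pfkp and 48.4 ± 1.56% for Pfkl. Pfkl thus led on both lengths, in 3 of 4 libraries on the second, and Pfkp only where counts were not divided by length. The share of Pfkm fell to 5.32% per reference transcript and 3.95% by read pairs.

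The PFKFB genes make and break an allosteric activator of phosphofructokinase. Pfkfb3, the form with the highest kinase activity, lay at 45.5, 48.0, 46.6 and 49.5 TPM and held 82.0 ± 0.816% of the TPM of the 4 genes. Pfkfb4, Pfkfb1 and Pfkfb2 lay at 3.93 ± 0.592, 3.52 ± 0.239 and 2.98 ± 0.382 TPM. Pfkfb2 shares 17.4% of its exonic length with another annotated gene on the same strand, so its value is uncertain. Tigar, which removes the activator and so favours the pentose phosphate branch, lay at 43.4, 42.7, 43.1 and 40.9 TPM, and per reference transcript at 29.7 ± 0.724 TPM beside 52.0 ± 2.02 TPM for Pfkfb3.

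Aldolase was Aldoa almost alone. Aldoa, the muscle-type form that most cells express (ENSMUSG00000030695.14, chromosome 7, 126795234 to 126809108), lay at 1323, 1449, 1473 and 1433 TPM and held 99.9 ± 0.0210% of the step. Aldoc, the brain form, lay at 1.33, 0.995, 1.45 and 0.844 TPM. Tpi1, which interconverts the triose phosphates, lay at 703, 716, 780.02 and 708 TPM and was highest in replicate 3.

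Gapdh and Pkm of the pay-off phase, and Ldha after it, stood far above Pgk1 and Pgam1. Gapdh, the NADH-forming dehydrogenase (ENSMUSG00000057666.18, chromosome 6, 125161715 to 125166467), lay at 1462, 1423, 1569 and 1457 TPM. Pgk1, the first ATP-forming kinase, lies on the X chromosome (106187100 to 106203699) and had 362, 384, 392 and 363 TPM. Pgam1, phosphoglycerate mutase of most tissues, lay at 198, 169, 191 and 191 TPM. Its muscle counterpart Pgam2 had no count in any library, which places Pgam1 at least 700.4 times higher in every library (Pgam2 set to 3 counts per library). Bpgm, which makes the bisphosphoglycerate that loosens oxygen from haemoglobin in red cells, lay at 36.4, 36.7, 36.6 and 33.6 TPM. Of 8 erythroid markers 6 had no count at all, among them all 4 globin genes, and the list summed to at most 0.681 TPM in any library, so Bpgm reads were present where red cell markers were at or near 0.

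Enolase transcripts came from Eno1 with a steady contribution of Eno3. Eno1, the form of most tissues (ENSMUSG00000063524.13, chromosome 4, 150236721 to 150248879), lay at 525, 554, 604 and 574 TPM. Eno3, named the muscle enolase (ENSMUSG00000060600.15, chromosome 11, 70657202 to 70662513), lay at 155, 156, 149.9 and 158 TPM, with 4339, 4020, 4916 and 3678 read pairs. Of 5 skeletal muscle markers none reached 1 TPM in every library, Myh4 and Mb had no count, and the list summed to at most 2.69 TPM, most of it from Tnnt3. No exon of Eno3 overlapped another gene on either strand. The Eno3 share of the step was 21.5 ± 1.21% by TPM, 10.3 ± 0.661% per reference transcript and 8.13 ± 0.533% by read pairs, since the deposited length of Eno1 is 2.65 times that of its reference transcript. Eno2, the neuronal form, lay at 3.19, 2.33, 2.54 and 1.87 TPM, and 5 neural markers summed to at most 0.132 TPM.

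Pyruvate kinase was Pkm alone at this depth. Pkm (ENSMUSG00000032294.17, chromosome 9, 59656368 to 59679375) lay at 1714, 1787, 1881 and 1812 TPM, and Pklr, the gene of the liver and red cell forms, had no count, which allows up to 0.0492 to 0.0690 TPM in a library. Pkm makes the M1 and M2 proteins by alternative exons, and gene counts do not separate them. Ldha, the subunit that favours lactate formation (ENSMUSG00000063229.15, chromosome 7, 46841475 to 46855627), lay at 2782, 2744, 2832 and 2615 TPM, the highest TPM of the 41 genes in every library. By read pairs, not divided by length, Pkm was above Ldha in replicate 3 (177331 against 176766) and replicate 4 (121648 against 116233). Ldhb, the heart-type subunit (ENSMUSG00000030246.11, chromosome 6, 142490249 to 142507957), lay at 48.1, 52.2, 47.9 and 50.9 TPM. Ldha exceeded Ldhb by 55.2 ± 3.82 times and held 98.2 ± 0.121% of the step; per reference transcript the ratio was 86.0 ± 5.94.

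Lactate transporter transcripts also came mainly from 1 gene. Slc16a1, the widely expressed monocarboxylate transporter (ENSMUSG00000032902.1, chromosome 3, 104638668 to 104658462), lay at 246, 248, 262 and 247 TPM. Slc16a3, the low-affinity lactate exporter of glycolytic muscle (chromosome 11, 120948480 to 120960868), lay at 9.97, 12.3, 11.9 and 11.5 TPM. The ratio of Slc16a1 to Slc16a3 was 22.1 ± 1.87, so lactate transporter transcripts were 95.6 ± 0.341% Slc16a1. Bsg and Emb, the membrane chaperones of these transporters, lay at 538 ± 25.9 and 146 ± 4.11 TPM, and Slc16a7 at 0.0399 ± 0.0219 TPM.

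**Figure D2:**
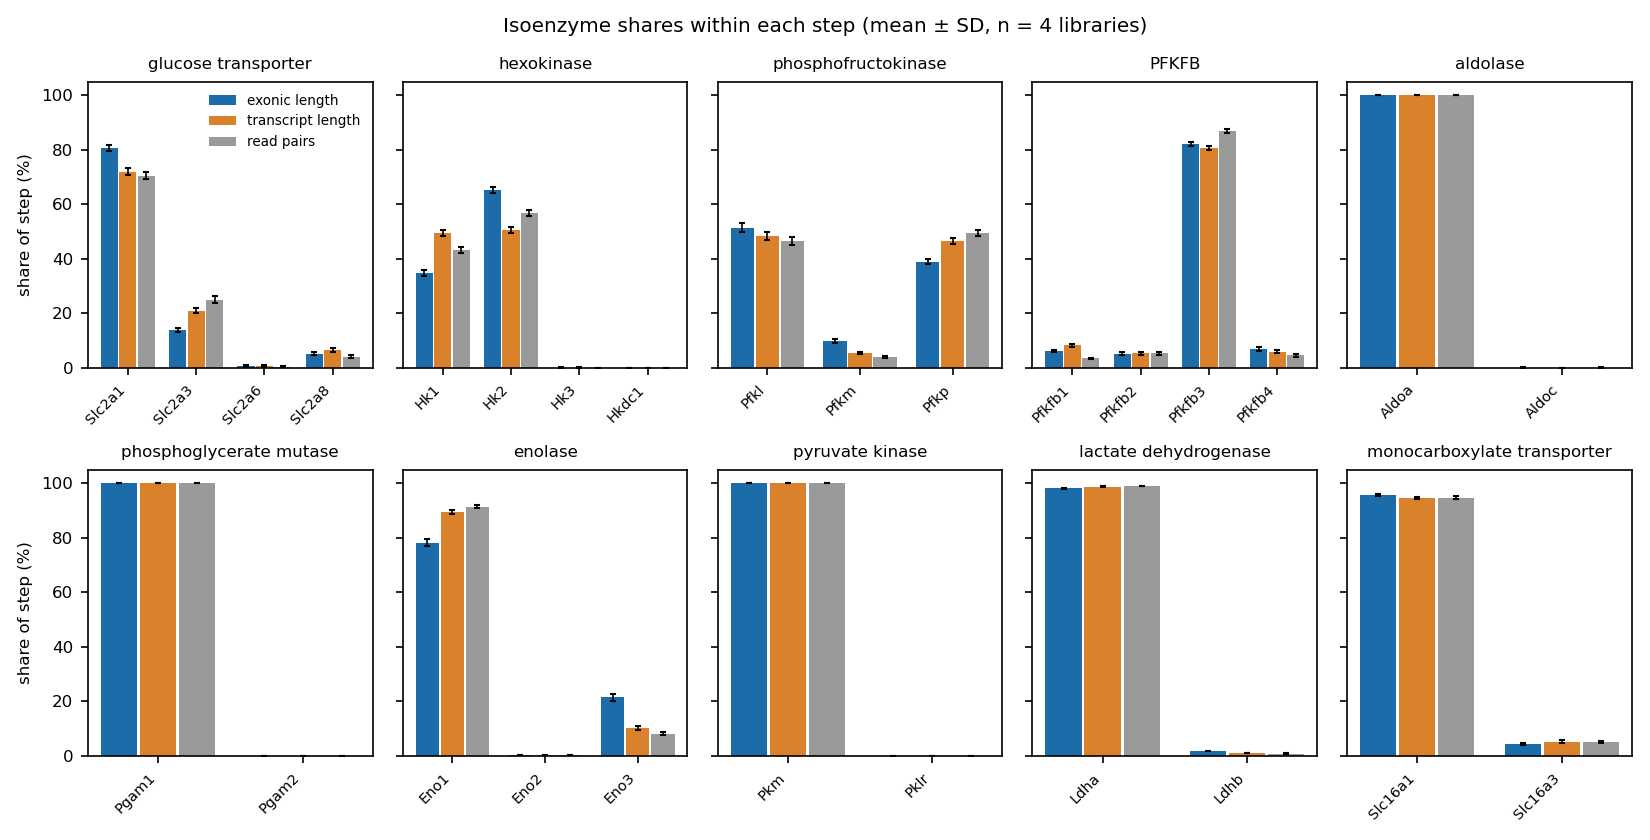
Share of each gene in its step, in percent of the summed level of the listed isoenzymes (mean ± SD, n = 4 libraries), computed per deposited exonic length, per length of 1 reference transcript, and from read pairs. The leading gene is the same on all 3 scales in 9 of 10 steps; for hexokinase and phosphofructokinase the bars of the leading pair draw level or cross.

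In 9 of the 10 steps with isoenzymes the same gene led on all 3 scales, and phosphofructokinase was the exception. Within each library 10 fixed isoenzyme pairs and 2 summary contrasts were compared on the log2(TPM + 1) scale by an exact two-sided sign-flip permutation test over libraries. With 4 libraries its smallest possible p is 0.13, so none of the 12 could pass 0.05. The 10 isoenzyme differences had the same direction in 4 of 4 libraries (p = 0.13 each, exact; 0.14 after Benjamini-Hochberg adjustment over 12). They ran from 10.8 ± 0.0551 for Pkm over Pklr to 0.90 ± 0.0708 for Hk2 over Hk1. Between these lay 9.37 ± 0.216 for Aldoa over Aldoc, 5.76 ± 0.0988 for Ldha over Ldhb and 4.35 ± 0.11 for Slc16a1 over Slc16a3. Pklr and Pgam2 had no count, so the direction of Pkm over Pklr and Pgam1 over Pgam2 was fixed in advance. The size of such differences depends on the 1 added to TPM. With 0.1 added instead, Pkm over Pklr became 14.1 ± 0.0551 and Aldoa over Aldoc 10.2 ± 0.353. Slc2a1 stood above Slc2a3 by 2.48 ± 0.0875, Pfkfb3 above Pfkfb4 by 3.30 ± 0.128 and Eno1 above Eno3 by 1.86 ± 0.105. Pfkp minus Pfkl was -0.40 ± 0.0808.

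Summed over isoenzymes, the steps did not follow the order of the pathway in level. Lactate dehydrogenase (2793 ± 91.4 TPM), pyruvate kinase (1798 ± 68.6), Gapdh (1477 ± 63.2) and aldolase (1421 ± 66.3) stood at the top. Tpi1 (727 ± 36.0) and enolase (721 ± 31.2) followed. Below these lay Pgk1 (375 ± 14.8), Gpi1 (362 ± 17.6), phosphofructokinase (347 ± 14.5), hexokinase (195 ± 11.5) and phosphoglycerate mutase (188 ± 12.8). The ranges over libraries overlapped between Gapdh and aldolase, Tpi1 and enolase, Pgk1 and Gpi1, Gpi1 and phosphofructokinase, and hexokinase and phosphoglycerate mutase. Within libraries Gpi1 was above phosphofructokinase in 4 of 4, and the first of each other overlapping pair was above in 3 of 4. Lactate dehydrogenase, which follows the pay-off phase, was counted with the pay-off steps. Within libraries the median of these steps was higher than the median preparatory step in 4 of 4 libraries. The log2(TPM + 1) difference was 1.51 ± 0.0233 (exact sign-flip p = 0.13). With counts scaled to library size and not divided by length it was 0.945 ± 0.0222, and per reference transcript 1.62 ± 0.0346. The difference without lactate dehydrogenase was not tested. Per reference transcript Gapdh rose to 2996 ± 127 TPM and passed pyruvate kinase (2577 ± 100.5). Enolase at 1166 ± 60.8 TPM passed Tpi1 at 867 ± 42.7 TPM. On that scale Gpi1 at 564 ± 27.8 TPM and phosphofructokinase at 459 ± 20.1 TPM also passed Pgk1 at 322 ± 12.6 TPM. By read pairs, not divided by length, phosphofructokinase was above Gpi1 and hexokinase above Pgk1 in 4 of 4 libraries. Lactate dehydrogenase was above pyruvate kinase in 3 of 4 libraries on that scale, with overlapping ranges.

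**Figure D3:**
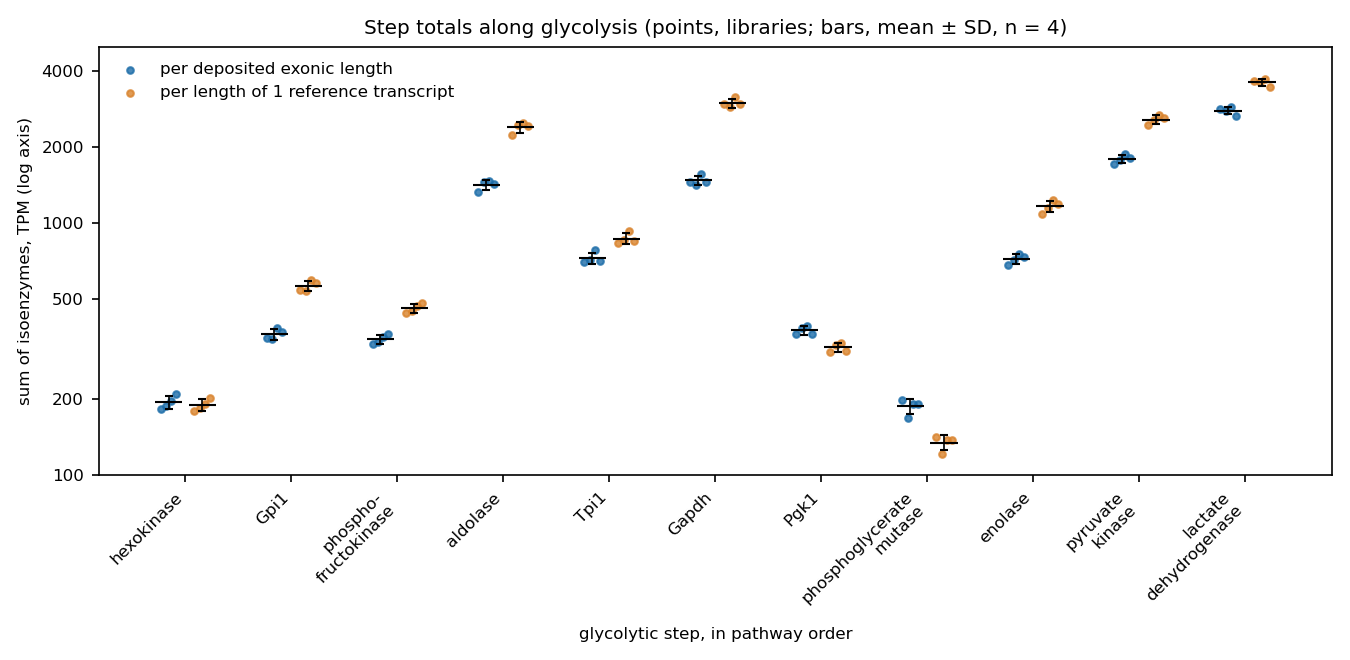
Summed TPM of the isoenzymes at each step of glycolysis, in pathway order on a log axis, for the deposited exonic length and for 1 reference transcript per gene; points are libraries and bars are mean ± SD (n = 4). Lactate dehydrogenase is highest and phosphoglycerate mutase lowest on both scales, at 2793 and 188 TPM on the first.

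Several abundant members share sequence with retrocopies and pseudogenes, which can cost them reads. Of the 75-base windows of each reference transcript, 80.3% for Gapdh occurred exactly in transcripts of another gene, as did 67.5% for Pgk1, 65.4% for Eno1 and 40.6% for Pgam1. Pfkfb2 followed with 24.3%, Pkm with 19.6%, Ldhb with 16.7% and Ldha with 5.38%, and 28 of the 41 genes shared none, Eno3, Hk1, Hk2, Slc16a1 and Tkt among them. For Gapdh 118 other genes were involved, and read pairs counted on them came to 2.47% of those on Gapdh. For Pgk1, Eno1 and Pgam1 the same figure was at most 0.616%. Pkm shares 15.3% of its exonic length with Gm49759 on the same strand, and read pairs counted on its look-alikes came to 2.26% of its own. The levels of Gapdh, Pgk1, Eno1, Pgam1 and Pkm are therefore uncertain, and reads that map to several places, for which the headers record no option, may be missing from them. How much of the low place of Pgk1 and Pgam1 among the steps this accounts for was not tested.

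**Figure D4:**
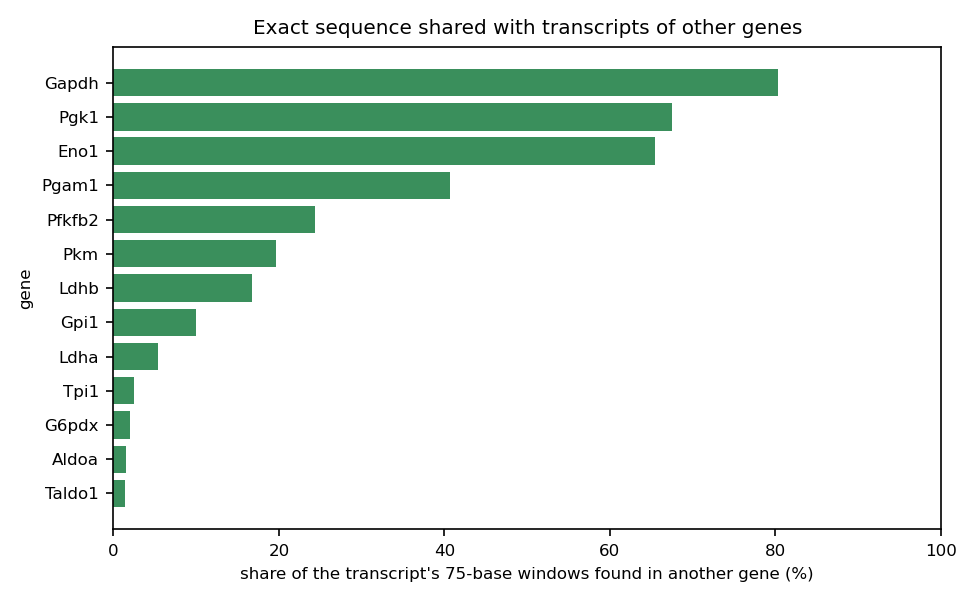
Percentage of the 75-base windows of each gene's reference transcript that occur exactly in a transcript of another gene, for the 13 of 41 genes above 0. Gapdh (80.3%), Pgk1 (67.5%), Eno1 (65.4%) and Pgam1 (40.6%) stand apart.

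The pentose phosphate pathway was complete, with transketolase in the lead. In the oxidative arm G6pdx, the NADPH-forming entry enzyme (chromosome X, 74409483 to 74429194), lay at 114, 117, 118 and 117 TPM. Pgd, the second NADPH-forming dehydrogenase, lay at 109, 109, 107 and 103 TPM, and Pgls, the lactonase between them, at 55.2, 56.9, 59.9 and 55.7 TPM. In the non-oxidative arm Tkt, transketolase (ENSMUSG00000021957.6, chromosome 14, 30548359 to 30574722), lay at 406, 421, 439 and 417 TPM and Taldo1, transaldolase, at 208, 212, 203 and 196 TPM. Rpe and Rpia, the epimerase and isomerase of the pentose phosphates, lay at 54.8 ± 2.87 and 51.4 ± 2.14 TPM. The median of the non-oxidative genes minus that of the oxidative genes was -0.01 ± 0.0344 on the log2(TPM + 1) scale, positive in 2 of 4 libraries (exact sign-flip p = 0.63). With 4 libraries this test cannot go below 0.13, so it does not decide whether the arms differ. With counts scaled to library size and not divided by length the difference was -0.0387 ± 0.0474 (exact sign-flip p = 0.13). Per reference transcript it was -0.0421 ± 0.0461 (exact sign-flip p = 0.25). Within the non-oxidative arm Tkt and Taldo1 lay above all 3 oxidative genes in every library, and Rpe and Rpia did not. Pgls shares 20.6% of its exonic length with Fam129c on the same strand, and its deposited length is 4.22 times its reference transcript, per which its level was 167 ± 6.26 TPM. On that scale Pgd lay at 217 ± 5.41 TPM against 94.4 ± 1.41 TPM for G6pdx, and Rpia at 104.9 ± 4.27 TPM against 44.1 ± 2.31 TPM for Rpe, so the near equality within each pair held only on the deposited lengths. Tktl1 and Tktl2, the transketolase-like genes, had no count, and H6pd, the oxidative enzyme of the endoplasmic reticulum, lay at 26.4 ± 1.45 TPM.

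Neighbouring branches were present in part. Prps1 and Prps2, which turn ribose phosphate toward nucleotides, lay at 218 ± 8.20 and 116 ± 3.20 TPM, and all 3 genes of the pentose outlet list reached the floor. Pyruvate entry into mitochondria was covered by 12 of 13 genes, led by the pyruvate dehydrogenase subunit genes Pdhb and Pdha1 at 204 ± 11.8 and 198 ± 5.99 TPM, and Pdk4, a kinase that switches that enzyme off, had no count. Of 7 gluconeogenesis genes 3 reached the floor, led by G6pc3 at 71.8 ± 3.33 TPM and the mitochondrial Pck2 at 28.1 ± 2.36 TPM, while Pck1, Fbp1, Fbp2 and G6pc had no count. Glycogen and glycerol genes reached the floor in 7 of 9 cases, with Pygb, a glycogen phosphorylase, at 71.6 ± 1.4 TPM. Among 8 regulators Myc lay at 940 ± 51.1 TPM, Hif1a at 183 ± 6.41 TPM and Mlx at 115 ± 5.31 TPM, and 6 of 8 reached the floor.

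Spread between the replicates was tested over all genes. In edgeR's quasi-likelihood fit over all genes 0 of the 37 members tested had more spread between libraries than genes of like abundance at an adjusted p of 0.05, beside 0.228% of all 12285 genes tested (28 genes), a background so low that a count of 0 says nothing particular about these genes. In the same edgeR fit 1 member, Slc2a6, passed an unadjusted threshold of 0.05, with an adjusted p of 0.913, beside 5.42% of all genes. DESeq2 marked 0 members as dispersion outliers. The 4 genes not tested were Hk3, Hkdc1, Pgam2 and Pklr, which had too few counts. The 36 members whose mean reached 1 TPM had a median SD of 0.0695 in log2 CPM, the count scaled to library size, against 0.0949 over the 11366 genes that met the same floor. Against genes within 0.5 log2 CPM of their own abundance, 20 of the 36 had an SD above the median and 16 below, so the lower overall SD was not seen at like abundance. Hk1 had the smallest SD at 0.0186, followed by Pfkp at 0.0213 and G6pdx at 0.0245. The X-linked Pgk1, G6pdx and Pfkfb1 had SDs of 0.0693, 0.0245 and 0.095, in libraries that differ in Xist. The widest after Slc2a6 were Aldoc (0.361), Eno2 (0.333) and Pfkfb4 (0.21), all below 5 TPM, and Aldoc and Eno2 were, like Slc2a6, lowest in replicate 4.

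Deviations were mostly small, and members were most often highest in replicate 3. Of the 37 tested members 18 had their highest log2 CPM in replicate 3, where 23.8% of all tested genes had theirs, and 17 had their lowest in replicate 4, as did 29.1% of all genes. The median deviation of the members was 0.05 in replicate 3 and -0.02 in replicate 4 on the log2 scale, against medians over all tested genes within 0.00327 of 0. In replicate 3 Tpi1 lay 0.10 above its own mean, Eno1 0.10, Slc2a1 0.10 and Gapdh 0.09. Hk2 and Slc2a3 had their highest values in replicate 4, at 0.11 and 0.12 above their means. Replicate 3 also held the most read pairs (63313389) and replicate 4 the fewest (46192242), and the part of depth in this pattern was not tested. The members share a pathway and a library and are not replicates, so these counts carry no test.

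**Figure D5:**
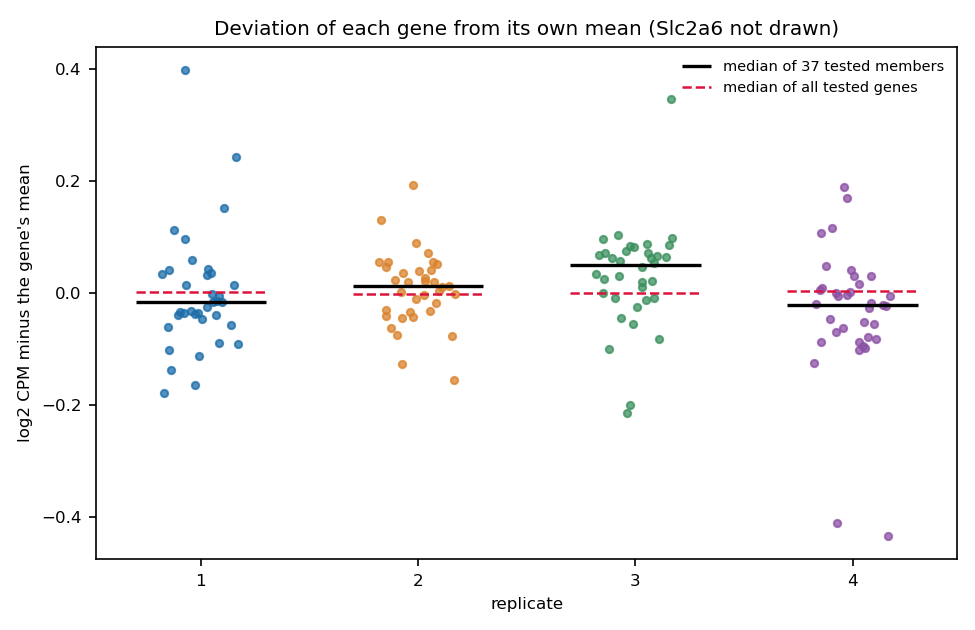
Deviation of log2 CPM from the gene's own mean, 1 point per tested member in each replicate, with the members' median (solid) and the median over all tested genes (dashed); Slc2a6, which deviates by -1.28 in replicate 4 and 0.86 in replicate 1, is not drawn. The members' median lies at 0.05 in replicate 3 and -0.02 in replicate 4.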

How the data were processed

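RNA-seq counts from 4 libraries of 1 group were used. The deposited values are raw read-pair counts for each gene. Per the file headers, featureCounts 1.4.6-p4 counted over GENCODE M13 exons with strand setting 2 and required both mates, and the alignments came from STAR (version not given here). The headers record no option for multi-mapping reads. Per the labels the assembly is mm10. They call the assay total RNA-seq but point to a polyA+ library protocol, and which applies was not settled.

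Symbols came from GENCODE M21 (50376 of 50600 identifiers matched, 224 did not). TPM was the count over deposited exonic length; an alternative chosen after seeing the data used the length of 1 M21 transcript per gene, the longest APPRIS principal or else the longest basic one. A gene was called present at 1 TPM in every library. The test of spread used R 4.3.3 and edgeR 4.0.16 (TMM, filterByExpr, intercept-only robust quasi-likelihood fit, residual dispersion against the trended prior by an F test, Benjamini-Hochberg at 0.05); DESeq2 1.42.0 was an alternative. The spread test was tested on simulated counts shaped like these libraries (12134 genes): it found 77 of 100 genes given extra variation of 0.5 (SD, log2) and 95 of 100 given 1, with 1 call among 11934 unaltered genes. Extra variation was given only to genes with a mean of 100 or more counts. Those figures therefore do not cover scarcer members such as Slc2a6 and Aldoc. Within-library differences were tested by exact sign-flip permutation. Floors for a count of 0 are 3 counts and, like SDs, take no account of reads lost to similar genes. All 41 members were named, and per fixed context list the highest 3 genes, some of which are left out; context genes named for having few or no counts (such as Pdk4 and Slc16a7) were chosen after their values were seen. The members and lists were chosen with earlier results of these data known. Alternatives covered scaling, filters, pseudocount, length, retrocopies and each replicate left out. Python 3.11.15, numpy 2.4.6, pandas 2.3.3, scipy 1.17.1 and matplotlib 3.10.9 were used.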

Additional observations from a re-analysis of the deposited data

Results flagged for a closer look

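Of 60 values examined over the 4 libraries (the 41 levels, 7 step totals and 12 within-library differences), 2 had 1 library far from the other 3, and chance alone gives about 1 in 20. Bpgm lay at 33.6 TPM in replicate 4, below 36.4 to 36.7 TPM in the others, and its spread did not pass edgeR's test (adjusted p = 0.996). Slc16a1 lay at 262 TPM in replicate 3, above 246 to 248 TPM in the others, with an adjusted p of 0.996 in the same test. Replicate 3 was also the library in which 18 of 37 tested members were highest and the one with the most read pairs.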

How the results depend on the processing

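The 12 within-library differences kept their direction with a pseudocount of 0.1 TPM, with retrocopies added to their parents (3 differences) and per reference transcript length. On log2 CPM, not divided by length, Pfkp minus Pfkl reversed to 0.0901 ± 0.0811; the deposited lengths of 9395 and 6675 bases account for that change by construction. Without replicate 2 the difference between the pentose phosphate arms reversed to 0.00104, and over all left-out replicates it lay from -0.0227 to 0.00104, always within its own spread. Hk2 over Hk1 fell from 0.90 to 0.03 ± 0.0704 per reference transcript (exact permutation p = 0.5). Of 28 isoenzyme shares 20 moved by more than 1 SD per reference transcript and 17 by read pairs, and none with a replicate left out. The count of 0 members past the spread threshold held under all alternatives, while over all genes the count of 28 became 142 with no count filter, 15 without robust estimation and 68 as DESeq2 dispersion outliers, and 14 to 27 with a replicate left out (14 without replicate 3); the cause was not tested. No paired analysis was possible because there is a single group. Depth limits genes at 0 counts, and shared sequence limits Gapdh, Pgk1, Eno1, Pgam1 and Pkm.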
